A study of Mus musculus with 14 samples.

Results

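The genes described here are 10 glycoproteins of the extracellular matrix: fibronectin (Fn1), the fibronectin type III repeat protein Fndc1, the adhesive protein Svep1, fibrillin-1 (Fbn1), the fibulins Fbln1, Fbln2, Fbln5 and Efemp1, Emilin1 and elastin (Eln). They were taken by symbol from the gene count table, 10 of 54532 genes, and all 10 were among the 16034 genes with enough counts to test. RNA from heart tissue of 14 male C57BL/6J mice (WT genotype, 8 weeks old at the start) was sequenced, 1 library per mouse. Control_1d (n = 3) and Control_6w (n = 4) were not irradiated, and IRR_1d (n = 3) and IRR_6w (n = 4) had received 30 Gy of γ-rays to the anterior chest under anaesthesia, with the rest of the body shielded. Hearts were taken 1 day or 6 weeks later, so the time groups also differ in age. The series asks which heart genes respond early and late to radiation, and for these genes the question is which part of the adhesive and elastic matrix moved, and when.

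Fibronectin is a dimer that cells pull into fibrils through integrins, and the fibrils then serve as a bed on which collagen and other matrix proteins are laid down. Fibrillin-1 builds microfibrils, which hold latent TGF-β complexes and guide the deposition of tropoelastin, while fibulins and Emilin1 link elastin, microfibrils and cells. In the heart these proteins are made mainly by fibroblasts and by the smooth muscle of vessel walls, and fibronectin is known for its deposition in scar and fibrosis. The counts are totals per gene, so splice forms such as the EDA form of fibronectin were not separated. In whole tissue, a higher share of producing cells and more RNA per cell cannot be told apart.

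Libraries held 13336746 to 16837265 counts, and the 10 genes had 137 to 11410 counts in a library. Levels are given as CPM, a gene's counts scaled to a fixed library total, after TMM scaling (factors 0.726 to 1.25). The 8 cardiomyocyte markers, Myh6 and Tnnt2 among them, summed to 4674 to 40881 CPM in every library. The lowest sum was that of Control_6w replicate 3, which stood apart with 4328 CPM of 10 thymus markers (next library 58.4), including Rag1 at 1128 and Dntt at 571. RNA of the lung epithelium marker list was found in IRR_6w replicate 1, where the 8 markers summed to 429.9 CPM (next 33.7). Most of it was Scgb1a1 at 345, while Sftpc was at 0.288. This library was also highest in markers of atrium (3084), mesothelium (527), white fat (3376) and brown fat (1089). Ucp1, the brown fat gene, was at 687 CPM there, while Control_6w replicate 3 had 484 CPM, IRR_1d replicate 3 had 222 CPM and the other 11 libraries had 0. IRR_1d replicate 3 was highest in smooth muscle markers (2343, next 614), cardiac fibroblast markers (4790, next 3297) and cartilage and trachea markers (58.2, next 23.1). Control_1d replicate 1 was highest in liver markers (65.1, next 13.7). Values without 1 of these libraries are given beside the results they moved most.

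At 6 weeks after irradiation, 3 of the 10 genes were DEGs, meaning that edgeR gave a Benjamini-Hochberg adjusted p under 0.05 and that the fold change exceeded 2 or fell short of 0.5. Fn1, Fndc1 and Svep1 rose in IRR_6w, against 0.256% of all tested genes called in this comparison. The fold change of Fn1 was 6.07 (95% interval 3.40 to 10.8), of Svep1 4.52 (2.78 to 7.34) and of Fndc1 4.34 (2.80 to 6.73). The other 7 genes also had positive fitted values, from 0.38 to 1.45 on the log2 scale, without passing the test. The median log2 fold change of the 10 genes was 0.82, while that of all tested genes was -0.09 and 43.8% of them were positive.

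Fn1 (ENSMUSG00000026193, chromosome 1, 71585520 to 71653200 of mm10, minus strand), the adhesive protein of the provisional matrix, had 74.0, 86.5, 65.9 and 136 CPM in Control_6w replicates 1 to 4. In IRR_6w replicates 1 to 4 it had 656, 366, 690.0 and 489 CPM. The lowest irradiated heart was thus well above the highest control, and the groups did not overlap. The log2 fold change was 2.60 (SE 0.390, edgeR adjusted p = 0.0188). These levels rest on 6078 to 11410 counts per irradiated library.

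Fndc1 (ENSMUSG00000071984, chromosome 17, 7738569 to 7827302, minus strand) encodes a secreted protein with fibronectin type III repeats. It had 21.8, 21.0, 11.2 and 18.5 CPM in Control_6w and 98.6, 53.8, 90.3 and 71.8 CPM in IRR_6w, again with no overlap. Its log2 fold change was 2.12 (SE 0.295, edgeR adjusted p = 0.0188). Svep1 (ENSMUSG00000028369, chromosome 4, 58042442 to 58206859, minus strand), a large protein of sushi, EGF and pentraxin domains that binds integrin α9β1, had 24.1, 23.0, 12.8 and 36.3 CPM in Control_6w. It had 85.1, 89.8, 124 and 135 CPM in IRR_6w, so that every irradiated heart was above every control. Its log2 fold change was 2.18 (SE 0.328, edgeR adjusted p = 0.0188). In all 3 genes the lowest of the 4 control values was that of Control_6w replicate 3, the library with thymus markers.

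The 3 calls held without the 2 libraries of this comparison that had the most thymus or lung markers, while Control_6w replicate 4, with 58.4 CPM of thymus markers, stayed in the fit. Without Control_6w replicate 3 and IRR_6w replicate 1 together, Fn1, Fndc1 and Svep1 had log2 fold changes of 2.38, 1.82 and 2.07 (edgeR adjusted p = 0.0258, 0.0165 and 0.0126). When any 1 of Control_6w replicates 1 and 2 and IRR_6w replicates 3 and 4 was left out, 0 of the 10 genes were DEGs, as were 0 of all tested genes in each of these 4 settings. The adjusted p of the 3 genes then ran from 0.0567 to 0.115, with log2 fold changes of 2.04 to 2.65.

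**Figure D1:**
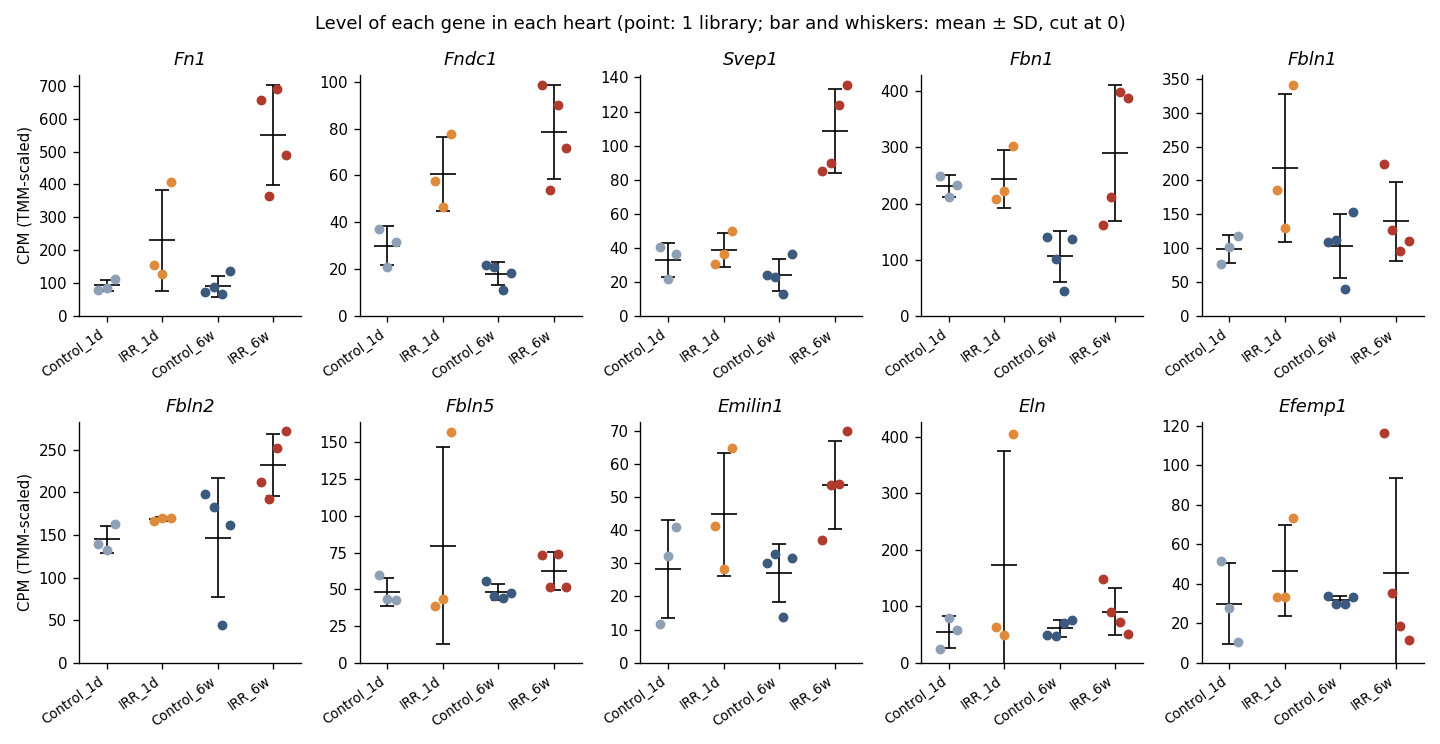
CPM after TMM scaling of each gene (vertical axis, from 0) in each library (points) of the 4 groups, with the group mean and SD as bar and whiskers, cut at 0. In Fn1, Fndc1 and Svep1 all 4 IRR_6w hearts lie above all Control_6w hearts, while Eln and Fbln5 show 1 high IRR_1d heart at 405 and 157 CPM and Efemp1 1 high IRR_6w heart at 116 CPM.

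The starts of Fndc1 and Svep1, which rose together, are shown beside that of Fbln1, which did not pass the test. The 250 bases before each start come from RefSeq (GRCm38.p6) and are written along the gene's strand, with matches to the searched motifs in capitals. The set of RefSeq start windows used here holds 8 of the 10 genes (10 windows, since Fbln1 and Fbln5 have a pair each). Fn1 and Eln have no entry in this set. The Fndc1 window is chr17:7827303-7827552 (minus strand) and the first of the Fbln1 windows chr15:85205699-85205948 (plus strand), neither of them annotated as exon in GENCODE M21. The Svep1 window is chr4:58206597-58206846 (minus strand), where GENCODE M21 annotates all 250 bases as exon, of Svep1 or of the gene Gm26889.
Fndc1: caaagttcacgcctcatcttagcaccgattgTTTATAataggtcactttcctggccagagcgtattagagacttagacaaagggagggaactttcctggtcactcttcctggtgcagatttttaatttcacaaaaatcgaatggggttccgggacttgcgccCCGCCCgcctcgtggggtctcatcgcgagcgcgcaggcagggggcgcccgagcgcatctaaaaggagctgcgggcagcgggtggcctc
Svep1: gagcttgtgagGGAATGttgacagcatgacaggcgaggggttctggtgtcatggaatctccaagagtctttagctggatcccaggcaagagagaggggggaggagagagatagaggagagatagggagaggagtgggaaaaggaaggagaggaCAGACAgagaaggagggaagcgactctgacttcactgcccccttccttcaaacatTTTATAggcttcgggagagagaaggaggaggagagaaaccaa
Fbln1: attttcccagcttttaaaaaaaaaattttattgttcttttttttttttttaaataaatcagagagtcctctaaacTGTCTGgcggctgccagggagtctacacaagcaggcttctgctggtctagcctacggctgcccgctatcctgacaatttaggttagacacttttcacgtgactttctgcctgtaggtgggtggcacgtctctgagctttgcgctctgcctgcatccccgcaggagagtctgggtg

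The motifs were searched on both strands: CRE (TGACGTCA), the CRE core (TGACG, which CRE contains), AP-1 (TGANTCA), the Smad motif (CAGACA), TEAD (GGAATG), the GC box (GGGCGG) and the TATA box (TATAAA). Fndc1 held a GC box starting 88 bases and a TATA box 219 bases before its start. Svep1 held a Smad motif at 97, TEAD at 239 and a TATA box at 42 bases before its start, and the printed Fbln1 window held a Smad motif at 175. The other Fbln1 window held a GC box 11 bases before its start. Among 32851 RefSeq windows of this length, the Smad motif was found in 17.1%, TEAD in 12.6%, the TATA box in 12.4%, the GC box in 32.7%, the CRE core in 17.8%, AP-1 in 6.75% and CRE in 1.55%. Of the 10 windows of these genes, some of which overlap, 5 held a Smad motif, 6 a GC box, 2 a TATA box, 2 the CRE core, 1 TEAD, 1 AP-1 and 0 CRE. The Smad motifs were in 4 of the 8 genes, since both Fbln1 windows hold the same site, the GC boxes in 6 genes and the CRE core in 1. No motif was shared by Fndc1 and Svep1 other than the TATA box sequence, which in both lies on the strand opposite to the gene (TTTATA as printed). These matches describe letters only.

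Fbn1 (ENSMUSG00000027204, chromosome 2, 125300594 to 125507993, minus strand), the backbone of microfibrils, had the next largest value at 6 weeks. It had 141, 101, 44.6 and 138 CPM in Control_6w and 162, 212, 398 and 388 CPM in IRR_6w, and the groups did not overlap, although the gap was narrow. The log2 fold change of 1.45 (SE 0.368) had an unadjusted p of 0.00139 but an edgeR adjusted p = 0.127. With DESeq2 on all libraries Fbn1 was a DEG (adjusted p = 0.00879), as it was in edgeR without Control_6w replicate 3 and IRR_6w replicate 1 (log2 fold change 1.40, adjusted p = 0.0341). In DESeq2 4 of the 10 genes were thus DEGs, beside 2.04% of the genes with an adjusted p. With an unadjusted edgeR p under 0.05 and a fold past those limits there were also 4 of 10, beside 5.43%.

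Emilin1 (ENSMUSG00000029163, chromosome 5, 30913402 to 30921277), which sits between elastin and microfibrils and binds pro-TGF-β, had 30.0, 32.8, 13.9 and 31.7 CPM in Control_6w and 37.0, 53.8, 53.9 and 69.9 CPM in IRR_6w. These groups did not overlap either, but the log2 fold change of 0.99 (SE 0.391) had an edgeR adjusted p = 0.456. Counting all genes whose IRR_6w hearts lay above every control, there were 5 of 10 (Fn1, Fndc1, Svep1, Fbn1 and Emilin1), beside 4.08% of tested genes.

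Among the fibulins, none passed the test at 6 weeks. Fbln2 (chromosome 6, 91212455 to 91272540), which binds fibronectin and elastin, had 199, 183, 44.3 and 162 CPM in Control_6w and 212, 193, 252 and 272 CPM in IRR_6w, a log2 fold change of 0.66 (95% interval -0.08 to 1.40). Only Control_6w replicate 3 was far below the rest, and without it the value was 0.36. Fbln1 (chromosome 15, 85205949 to 85286535), a fibulin of basement membranes and elastic fibres, had 109, 112, 39.6 and 153 CPM in Control_6w and 224, 127, 95.5 and 111 CPM in IRR_6w. The Fbln1 groups overlapped, its log2 fold change was 0.43 (-0.44 to 1.30), and without Control_6w replicate 3 and IRR_6w replicate 1 it was -0.16.

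Fbln5 (chromosome 12, 101746565 to 101819055), which brings elastin to microfibrils and to lysyl oxidases, had 55.9, 45.3, 43.7 and 47.2 CPM in Control_6w and 73.6, 51.6, 74.2 and 51.3 CPM in IRR_6w. The groups overlapped, with a log2 fold change of 0.38 (-0.41 to 1.17). Eln (ENSMUSG00000029675, chromosome 5, 134702593 to 134747323), the elastin monomer, had 48.7, 46.8, 70.9 and 76.1 CPM in Control_6w and 148, 89.0, 72.7 and 51.6 CPM in IRR_6w. Its log2 fold change of 0.57 (-0.67 to 1.82) was 0.23 without IRR_6w replicate 1, the highest heart. The log2 value fitted for Fn1 lies above this interval, but the Fn1 interval (1.77 to 3.44) overlaps it. A 2-fold rise lies within the Eln interval.

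Efemp1 (fibulin-3, chromosome 11, 28853204 to 28926743), a short fibulin also known from mesothelial cells, was even in Control_6w (33.9, 29.7, 29.8 and 33.5 CPM). In IRR_6w it spread from 11.6 to 116 CPM, the other values being 35.2 and 18.7. The highest heart was IRR_6w replicate 1, and the lowest irradiated values lay below every control, so the log2 fold change of 0.52 (-0.78 to 1.82) became -0.54 without that library. Over all 14 libraries, Efemp1 was highest in the 3 libraries with the most mesothelium marker RNA. These were IRR_6w replicate 1 (527 CPM of 8 markers), IRR_1d replicate 3 (263 CPM, Efemp1 73.3) and Control_1d replicate 1 (206 CPM, Efemp1 51.5). It was lowest in the 2 libraries with the least, Control_1d replicate 3 (30.3 CPM, Efemp1 10.6) and IRR_6w replicate 4 (50.4 CPM, Efemp1 11.6). The part of mesothelium in the level of Efemp1 was not tested.

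**Figure D2:**
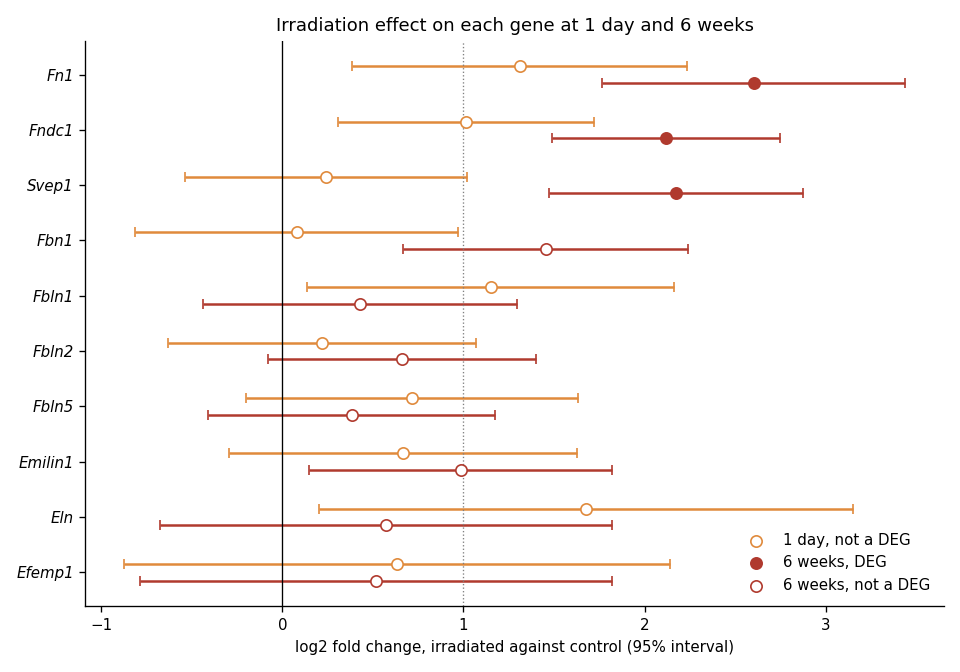
Fitted log2 fold change of each gene, irradiated against control (horizontal axis, edgeR, with 95% intervals), at 1 day (orange) and 6 weeks (red), filled where the gene was a DEG. The dotted line marks a 2-fold rise. Only Fn1, Fndc1 and Svep1 at 6 weeks are filled, with intervals that start at 1.77, 1.49 and 1.47, while 5 of the other 7 intervals at 6 weeks reach below 0.

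At 1 day, 0 of the 10 genes were DEGs in edgeR (0.0249% of all tested genes were), and 0 in DESeq2 on all libraries (0.197%) or limma-voom. All 10 fitted values were positive, with a median log2 fold change of 0.69 beside 0.06 for all tested genes, of which 55.1% were positive. With an unadjusted p under 0.05 and a fold past those limits there were 4 of 10, namely Fn1, Fndc1, Fbln1 and Eln, beside 2.23% of genes. For 4 of 10, Fn1, Fndc1, Fbln1 and Fbln2, the irradiated hearts lay above every control, beside 6.52%. Every edgeR adjusted p of the 10 genes was 1. Endothelium markers were lower in every IRR_1d heart (1173 to 1456 CPM) than in Control_1d (1623 to 1923 CPM), also without Kdr, the most abundant (1004 to 1122 and 1174 to 1439 CPM). The sums of cardiac and activated fibroblast, smooth muscle, macrophage and cardiomyocyte markers overlapped between the 1-day groups. The part of these cell types in the 1-day values was not tested.

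Fn1 had 79.5, 86.2 and 112 CPM in Control_1d and 155, 127 and 407 CPM in IRR_1d (log2 fold change 1.31, SE 0.432, edgeR adjusted p = 1). Fndc1 had 37.2, 20.8 and 31.7 CPM in Control_1d and 57.5, 46.3 and 77.8 CPM in IRR_1d (1.02, SE 0.330, edgeR adjusted p = 1). In both genes all 3 irradiated hearts were above the controls, and replicate 3 was the highest. Svep1 had 40.6, 21.5 and 36.4 CPM in Control_1d and 30.4, 36.3 and 49.95 CPM in IRR_1d, and Fbn1 had 249.6, 212 and 232 against 208, 222 and 303 CPM. These 2 genes overlapped between the groups, with log2 fold changes of 0.24 (-0.53 to 1.02) and 0.08 (-0.81 to 0.97). With 1 of the 1-day libraries left out, Svep1 ran from 0.03 (without IRR_1d replicate 3, or Control_1d replicate 2) to 0.43 (without Control_1d replicate 1).

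Eln gave the largest fitted value at 1 day, 1.68 (SE 0.690), but it came from 1 heart. Eln had 23.8, 80.0 and 57.9 CPM in Control_1d and 63.3, 48.2 and 405 CPM in IRR_1d, and its log2 fold change without IRR_1d replicate 3 was 0.05. Fbln5 likewise had 59.4, 43.1 and 42.7 CPM in Control_1d and 38.7, 43.2 and 157 CPM in IRR_1d, and its value of 0.72 became -0.24. Fbln1 had 77.0, 101 and 117 CPM in Control_1d and 185, 130.03 and 341 CPM in IRR_1d, where the other 2 irradiated hearts also lay above the controls, and its value of 1.15 became 0.68. Fn1 and Fndc1 kept 0.61 and 0.80 without this heart. Fbn1 became -0.10, so that 8 of the 10 fitted values were then positive.

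The remaining genes showed no separate pattern at 1 day. Fbln2 had 139.7, 132 and 163 CPM in Control_1d and 166, 170.02 and 170.5 CPM in IRR_1d, a narrow step without overlap (log2 fold change 0.22, 95% interval -0.63 to 1.07), which was 0.34 without Control_1d replicate 3. Emilin1 had 11.8, 32.2 and 40.8 against 41.2, 28.3 and 65.0 CPM (0.67, -0.30 to 1.63), which became 0.30 without Control_1d replicate 1 or IRR_1d replicate 3 and 1.06 without Control_1d replicate 3. Efemp1 had 51.5, 27.9 and 10.6 against 33.1, 33.4 and 73.3 CPM (0.63, -0.87 to 2.14), which became 1.28 without Control_1d replicate 1, 0.26 without Control_1d replicate 3 and 0.15 without IRR_1d replicate 3. Emilin1 and Efemp1 overlapped between the groups, and both were highest in IRR_1d replicate 3.

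IRR_1d replicate 3 was also the library with 2343 CPM of the 8 smooth muscle markers, against 238 to 614 in the other 13. Myh11, Acta2 and Cnn1 were at 464, 1054 and 137 CPM there, with the next libraries at 141, 270.1 and 26.7, while Tagln was near 0 in all libraries (at most 7.1). Atrial markers (2155 CPM) and activated fibroblast markers (734 CPM) were high in the same heart. The part of vessel wall or atrial tissue in the elastin level was not tested.

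**Figure D3:**
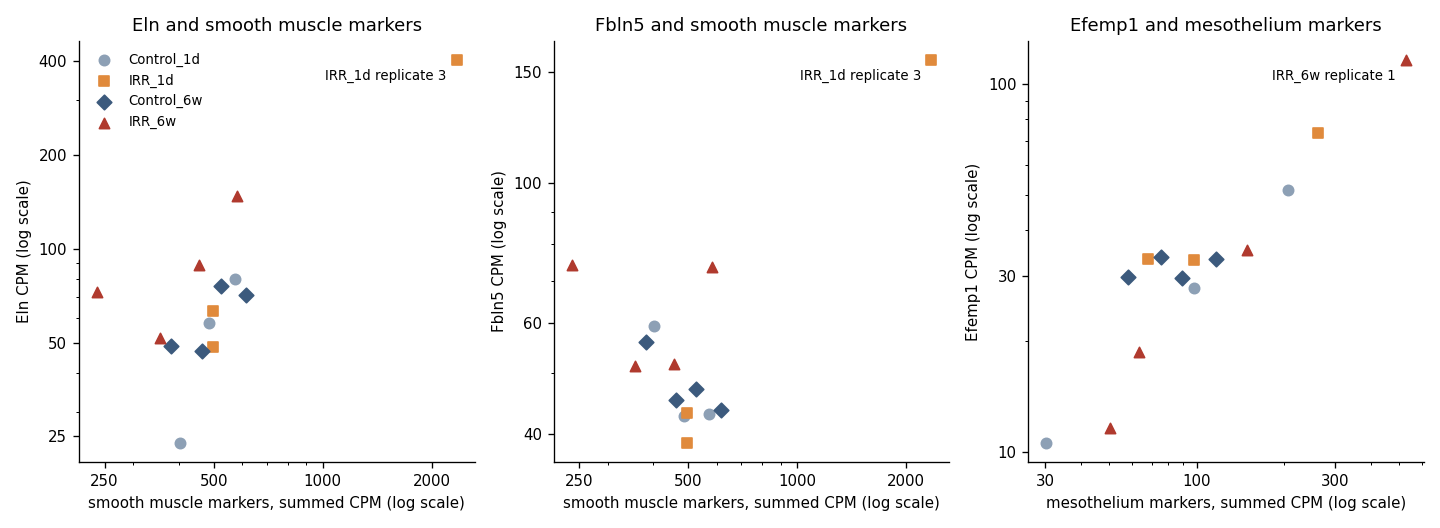
Eln and Fbln5 CPM (vertical axes, log scale) against the summed CPM of 8 smooth muscle markers, and Efemp1 CPM against the sum of 8 mesothelium markers (horizontal axes, log scale), 1 point per library, coloured by group. IRR_1d replicate 3 stands alone at 2343 CPM of smooth muscle markers with 405 CPM of Eln and 157 of Fbln5, and Efemp1 is highest at 116 CPM in IRR_6w replicate 1, where mesothelium markers reach 527 CPM.

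Beside the rise of Fn1, Fndc1 and Svep1 at 6 weeks, marker sums also moved. The 8 activated fibroblast markers summed to 75.4 to 183 CPM in Control_6w and 257 to 837 CPM in IRR_6w, and the 8 macrophage markers to 158 to 368 and 503 to 757 CPM. Neither list overlapped between the groups. The most abundant gene of each list was then left out, an alternative chosen after seeing the data. Without Postn the activated fibroblast sums were 31.9 to 65.1 and 60.9 to 142 CPM, which overlap, and without Mrc1 the macrophage sums were 115 to 312 and 392 to 612 CPM, which do not. Cardiac fibroblast markers (903 to 2719 and 2210 to 2925 CPM), smooth muscle markers (382 to 614 and 238 to 580.1 CPM), endothelium markers (678 to 2113 and 1210 to 1871 CPM) and cardiomyocyte markers (4674 to 39921 and 8176 to 28032 CPM) overlapped. The cardiac fibroblast sums did not overlap without Gsn (420.2 to 884 and 1243 to 1766 CPM). Within the irradiated group, Fn1 and the activated fibroblast sum were both highest in replicate 3 (690.0 and 837 CPM) and both lowest in replicate 2 (366 and 257 CPM). The orders differed in replicate 1, the library with lung, atrial and fat markers (656 and 273 CPM), and replicate 4 (489 and 698 CPM). The part of these cell types in the rises was not tested.

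Ratios of counts within a library do not depend on scaling. The log2 ratio of Fn1 to Eln was 0.56 ± 0.459 in Control_6w and 2.67 ± 0.666 in IRR_6w (SD, n = 4 each), and that of Fn1 to Fbln5 was 0.86 ± 0.495 and 3.11 ± 0.196. Fibronectin RNA thus rose relative to elastin and to Fbln5 RNA in the same hearts, in every IRR_6w library beyond every control. The log2 ratio of Svep1 to Fbn1 was -2.10 ± 0.327 and -1.34 ± 0.330, also without overlap, and that of Fn1 to Fbn1 was -0.15 ± 0.616 and 0.98 ± 0.722, with overlap. Among the genes that rose, the ratio of Fndc1 to Svep1 was -0.36 ± 0.409 and -0.47 ± 0.496, with overlap. These ratios were chosen after the folds were known and are given without a test.

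Per gene length (FPKM, from plain library totals and the deposited gene length), the order of the genes changed between the groups. In Control_6w, Fbln1 (22.6 ± 8.91, SD, n = 4) and Fbln2 (22.02 ± 9.74) were highest, then Efemp1 (15.4 ± 1.47), Fbn1 (8.39 ± 3.15), Fn1 (7.54 ± 2.10), Eln (7.47 ± 2.27), Fbln5 (6.87 ± 0.842) and Emilin1 (5.29 ± 1.36). Fndc1 (1.78 ± 0.356) and Svep1 (1.44 ± 0.474) were lowest. Fbln1 and Fbln2, the run from Fbn1 to Fbln5, and Fndc1 and Svep1 differed from their neighbours by less than their SDs. In IRR_6w, Fn1 was highest in FPKM (55.3 ± 16.5), where it had been the fifth in Control_6w, followed by Fbln2 (42.8 ± 9.21), Fbln1 (37.2 ± 15.7), Fbn1 (28.3 ± 12.9), Efemp1 (25.8 ± 27.9, or 12.1 without replicate 1), Eln (12.9 ± 5.90), Emilin1 (12.7 ± 3.72) and Fbln5 (10.6 ± 2.37). Fn1 and Fbln2 differed by less than the SD of Fn1. The first place of Fn1 is that of its mean. Efemp1 (67.1) was above Fn1 (66.0) in IRR_6w replicate 1, and Fbln2 (53.4) was above Fn1 (52.4) in replicate 4. Fndc1 (9.32 ± 2.61) and Svep1 (7.92 ± 2.23) had the lowest means of the 10 in that group and in the other 3, but in IRR_6w Fndc1 differed from Svep1 and from Fbln5 by less than their SDs. In IRR_6w replicate 4, Efemp1 (7.11) and Eln (7.97) were below Fndc1 (9.06) and Svep1 (10.5), and Fbln5 (9.28) was below Svep1. Emilin1 (8.81) was below Fndc1 (11.7) in IRR_6w replicate 1, and Eln (10.6) below Fndc1 (10.8) in replicate 3. Exceptions also occurred in 1-day libraries, such as Emilin1 (2.63) below Fndc1 (4.14) in Control_1d replicate 1.

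At 1 day the order in FPKM was led by Fbln2 (20.5 ± 4.81, n = 3) and Fbln1 (19.9 ± 3.33) in Control_1d. In IRR_1d Fbln1 (48.6 ± 29.5) was first and Fbln2 (24.8 ± 3.14) next, followed by Efemp1 (22.1 ± 13.4), Eln (21.5 ± 26.6) and Fn1 (19.3 ± 14.9). Replicate 3 carried several of these means. Without it they were 32.3 for Fbln1, 14.4 for Efemp1, 10.7 for Fn1, 6.14 for Eln and 5.20 for Fbln5 (11.4 with it), so that Fn1 was then above Eln. In Control_1d the mean of Efemp1 was 14.1, or 7.23 without replicate 1. Fbn1 was at 17.4 ± 5.05 in Control_1d and 19.1 ± 6.10 in IRR_1d, above its Control_6w level.

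**Figure D4:**
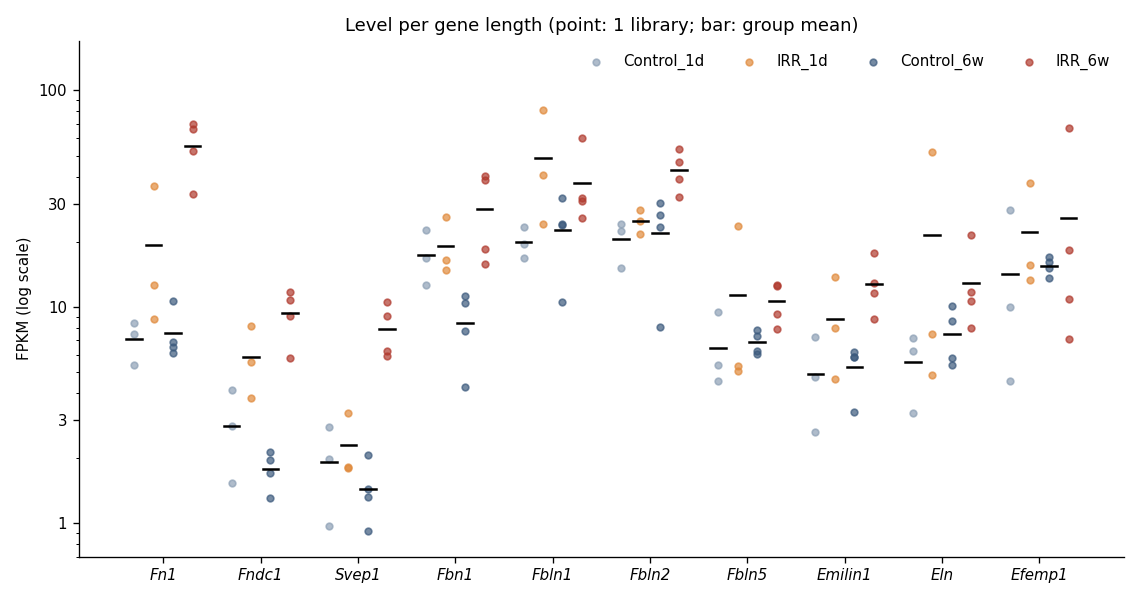
Level per gene length (FPKM, log scale) of each gene in each library, coloured by group, with the group mean as a bar. Fn1 moves from 7.54 in Control_6w to 55.3 in IRR_6w, the highest mean of that group, while Fndc1 and Svep1 have the lowest means of the 10 in all 4 groups.

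Between the controls, 0 of the 10 genes were DEGs in edgeR (0.0% of all tested genes were) and 0 in DESeq2 on all libraries (0.143%). Fbn1 was the gene that came nearest, the 1 of 10 with an unadjusted p under 0.05 and the fold limit (3.75% of genes) and the 1 of 10 whose Control_6w hearts lay below every Control_1d heart (2.53%). Its log2 fold change was -1.13 (SE 0.388, edgeR adjusted p = 0.902), from 231 ± 19.0 CPM (n = 3) to 106 ± 44.8 CPM (n = 4). Fndc1 had -0.73 (SE 0.305, adjusted p = 0.902). Without Control_6w replicate 3, the lowest heart, the Fbn1 value was -0.87.

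Between the irradiated groups, 0 of 10 were DEGs in edgeR (0.0374% of all tested genes), with 2 of 10 by unadjusted p and fold (3.85%), namely Svep1 at 1.48 (SE 0.354, unadjusted p = 8.6e-04, adjusted p = 0.287) and Fn1 at 1.26 (SE 0.411, adjusted p = 0.598), which was 1.96 without IRR_1d replicate 3. For 2 of 10, Svep1 and Fbln2, every IRR_6w heart lay above every IRR_1d heart (5.47% of genes). DESeq2 on all libraries called 1 of 10, Svep1 (adjusted p = 0.0116), beside 0.969% of genes. Eln had a value of -0.93 (SE 0.623, adjusted p = 0.999), which was 0.69 without IRR_1d replicate 3.

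Whether irradiation acted differently at 6 weeks than at 1 day was tested as an interaction, and 0 of 10 genes passed in edgeR (0.0% of all tested genes) or in DESeq2 on all libraries (0.285%). By unadjusted p and fold there were 4 of 10 (2.86% of genes). Svep1 had the largest value, a log2 difference of 1.93 (SE 0.485, unadjusted p = 0.00129, adjusted p = 0.711). Fbn1 had 1.37 (SE 0.554), Fn1 1.29 (SE 0.564) and Fndc1 1.10 (SE 0.435), each with an adjusted p = 0.990. Between the irradiated groups, Fbn1 had only 0.25 (SE 0.392) and Fndc1 0.38 (SE 0.308). Between the controls these 2 genes had -1.13 and -0.73. Without IRR_1d replicate 3 the Fn1 difference was 1.99 (edgeR adjusted p = 0.698). A larger effect at 6 weeks than at 1 day was therefore not established for any of them.

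The genes that work with these proteins were followed in 6 lists, chosen with earlier results known. Of 8 tested proteases that degrade elastin or fibronectin (9 listed), 1 rose at 6 weeks and 0 fell: Ctss, the elastase cathepsin S of macrophages and other cells, went from 29.6 ± 3.43 to 93.9 ± 20.5 CPM, a log2 value of 1.66 (SE 0.257, edgeR adjusted p = 0.0188). Its edgeR adjusted p was 0.0520 to 0.115 when any 1 of Control_6w replicates 1 and 2 and IRR_6w replicates 2, 3 and 4 was left out. All 8 fitted values were positive and 3 were past the unadjusted p and fold, with 2 at 1 day. Over all tested genes 0.256% were DEGs, 43.8% were positive and 5.43% were past the unadjusted p and fold at 6 weeks, and 2.23% were past them at 1 day. Mmp2, a gelatinase, had 1.38 (SE 0.342, adjusted p = 0.118) at 6 weeks and 1.91 (SE 0.401, adjusted p = 0.365) at 1 day, from 81.3 ± 23.4 to 306 ± 81.2 CPM. Without Control_6w replicate 3 its 1-day value was 1.91 with an edgeR adjusted p = 0.0399. DESeq2 on all libraries called 3 of these genes at 6 weeks (2.04% of genes) and 1 at 1 day (0.197%).

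In the other 5 lists 0 genes were DEGs in edgeR at 6 weeks or at 1 day with all libraries, TMM scaling and the count filter. The counts of these lists stand beside shares over all tested genes of 43.8% positive, 5.43% past the unadjusted p and fold and 2.04% by DESeq2 at 6 weeks, and 55.1%, 2.23% and 0.197% at 1 day. Of 12 integrin subunits that bind fibronectin, fibrillin or Svep1, 11 had positive values at 6 weeks, 2 had an unadjusted p under 0.05 with the fold limit and DESeq2 called 1. Itgb3, the β3 partner of αv, was at 6.08 ± 2.17 CPM in Control_6w and 30.7 ± 12.95 in IRR_6w without overlap (log2 fold change 2.33, SE 0.602, adjusted p = 0.136). Itgav was at 47.4 ± 17.3 and 103 ± 49.9 CPM (1.12, SE 0.395, adjusted p = 0.369). At 1 day Itga8, an integrin of smooth muscle, had 3.32 (SE 1.24), which was 0.65 without IRR_1d replicate 3. Among 14 genes of fibronectin assembly and co-receptors, 9 were positive at 6 weeks and 0 passed by unadjusted p with the fold limit or by DESeq2. Tns3, a tensin, was at 0.99 (SE 0.273, adjusted p = 0.167) and Vcl, vinculin, at 0.67 (SE 0.349), or 0.40 without Control_6w replicate 3 and 0.44 without IRR_6w replicate 4. At 1 day 11 of the 14 were positive and 1 passed by unadjusted p with the fold limit, the syndecan Sdc1 at 1.11 (SE 0.461), which was 0.62 without IRR_1d replicate 3.

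Of 20 tested other elastic fibre and microfibril genes (21 listed), 19 had positive values at 6 weeks and 18 at 1 day, with medians of 0.74 and 0.82. There were 2 and 5 past the unadjusted p and fold, and DESeq2 called 0 at either time. The 1-day counts of this and the other lists include IRR_1d replicate 3, the heart that carried the Eln value, and are not given here without it. Mmrn2, an endothelial member of the EMILIN family, was higher in every irradiated heart at both times. It was at 75.2 ± 32.1 and 158 ± 13.6 CPM at 6 weeks (1.07, SE 0.338, adjusted p = 0.274) and 59.6 ± 19.0 and 139.7 ± 33.3 CPM at 1 day (1.23, SE 0.392, adjusted p = 1). Hmcn1, hemicentin, had 0.83 (SE 0.357, adjusted p = 0.516) at 6 weeks, which was 0.47 without IRR_6w replicate 1. All 5 lysyl oxidases, which crosslink elastin, had positive values at 6 weeks, 2 past the unadjusted p and fold and 1 by DESeq2. Loxl2 was at 20.2 ± 9.48 and 68.2 ± 41.9 CPM (1.76, SE 0.512, adjusted p = 0.208), Loxl4 at 0.776 ± 0.523 and 4.35 ± 1.68 CPM (2.47, SE 1.07) and, at 1 day, Loxl3 at 1.72 (SE 0.987), which was 1.13 without Control_1d replicate 1, 2.33 without Control_1d replicate 3 and 3.76 in limma-voom.

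Of 15 tested other adhesive glycoproteins (16 listed), 13 had positive values at 6 weeks, 4 past the unadjusted p and fold and 2 by DESeq2. Postn, the periostin of activated fibroblasts, was at 73.6 ± 33.8 and 409 ± 263 CPM (2.48, SE 0.624, adjusted p = 0.124). Nid2, a nidogen of basement membranes, was at 25.9 ± 13.3 and 93.0 ± 36.2 CPM (1.85, SE 0.441, adjusted p = 0.113). Both groups of values were without overlap. Nid2 was a DEG in 7 and Postn in 5 of 25 other settings, 2 of them DESeq2 fits for each gene. They include edgeR without IRR_6w replicate 1 for Nid2 (2.07, adjusted p = 0.0496) and without IRR_1d replicate 3 for Postn (2.47, adjusted p = 0.0408). Itgb3 and Loxl2 were DEGs in 3 of the 25 each and Loxl4 in 1. At 1 day Npnt, nephronectin, had 3.96 (SE 1.41), which was 0.50 without IRR_1d replicate 3.

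By likeness of log2 CPM over the 14 libraries, the genes closest to Fn1 were C4b (Pearson r = 0.958), Ptprj (0.954) and Piezo2 (0.949). Those closest to Fndc1 were Piezo1 (0.925), Myof (0.906) and Siglec1 (0.904), and those closest to Eln were Plekhg3 (0.918), Mfap4 (0.906) and Maml2 (0.903). These values are descriptions, since the libraries share their groups.

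Across 25 other ways of processing the data, the log2 fold change at 6 weeks ran from 2.38 to 2.87 for Fn1, 1.82 to 2.39 for Fndc1 and 1.87 to 2.46 for Svep1. Fn1 and Fndc1 were DEGs in 20 of the 25 and Svep1 in 19. Fbn1 ran from 0.83 to 1.75 and was a DEG in 3. Fbln2, Fbln5, Emilin1 and Eln were positive in all 25 and DEGs in 0, Fbln1 was positive in 23 and Efemp1 in 21.

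**Figure D5:**
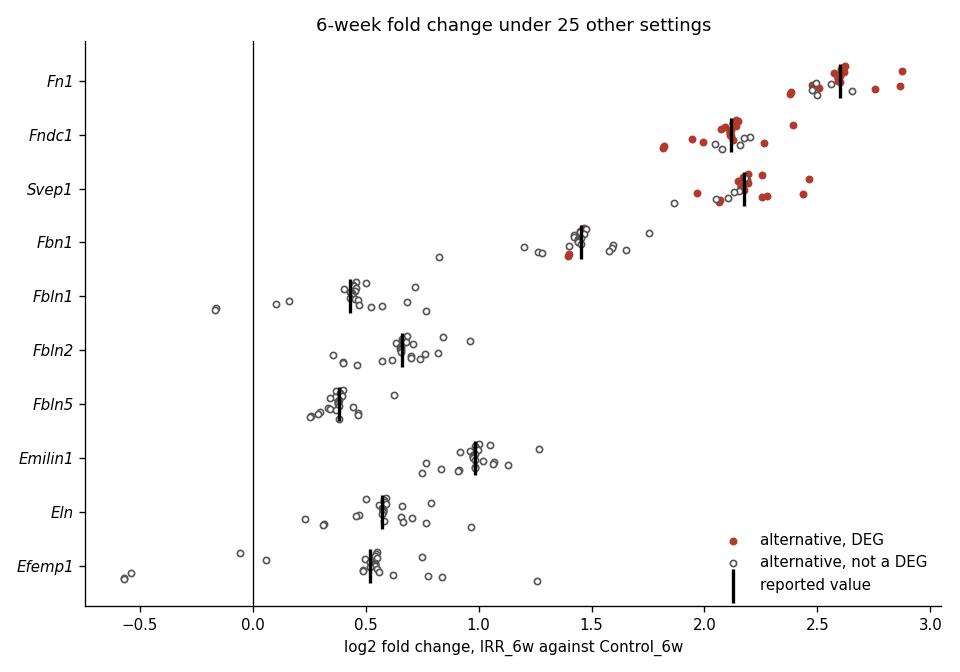
Log2 fold change of each gene, IRR_6w against Control_6w (horizontal axis), as reported (bar) and under 25 other settings (points, filled where the gene was a DEG). Fn1, Fndc1 and Svep1 lie at or above 1.82 in every setting, while the points of Fbln1 and Efemp1 fall on both sides of 0.

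Gene counting without strand could mix or leave out reads of overlapping genes, and whether strand was used is not given in the sources used here. On the opposite strand, other genes overlap 20.1% of the exonic bases of Fbn1, 13.9% of Svep1, 3.30% of Eln and 2.499% of Fn1, and 0 of the other 6 genes. The overlapping genes Gm9913, Gm26889, Gm30003 and Apol7d themselves were at most at 1.2, 0, 0.6 and 0.3 CPM in a library. If reads of shared bases were left uncounted, these low levels would not show it, and such a loss was not tested.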

How the data were processed

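RNA of cardiac tissue from 14 mice was sequenced with a standard Illumina protocol. The submitters' processing notes name FastQC 0.11.8, Trim Galore 0.6.1, STAR 2.5.0a and the mm10 build. The authors deposited 1 table of read counts per gene (HTSeq per the study's methods), whose columns name the libraries by group and replicate. Strand use and the annotation release are not given in the sources used here. The deposited counts were tested with edgeR 4.0.16 (R 4.3.3): quasi-likelihood test, TMM scaling, filterByExpr, 1 model of 4 groups and Benjamini-Hochberg adjustment over 16034 genes. CPM and FPKM were computed here from the deposited counts and gene lengths. Nothing in the labels says more of the mice than 1 library each, so p-values measure the spread between these libraries. The edgeR, DESeq2 and limma-voom fits were run on simulated counts and checked for the sign and median size of known changes. No simulated library was given RNA of other tissue. The members, lists and tests were chosen with earlier results of these data known. All 10 genes are named. From each pathway list any DEG is named, with the 2 genes of lowest unadjusted p at 6 weeks and the 1 lowest at 1 day. Likeness names the 3 genes with the highest r. Tissue markers are named where 1 library exceeded the others 5 times in the list's sum. Smooth muscle and cardiomyocyte markers, Sftpc, Mrc1, Gsn, Kdr and Ucp1 were named outside this rule, after their values were seen. Alternatives were DESeq2 1.42.0, limma-voom 3.58.1, pairwise fits, other scalings, no filter, a replicate block and leaving out libraries.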

Additional observations from a re-analysis of the deposited data

Results flagged for a closer look

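Among 52 groups of 4 libraries tested for a single value far from the rest, 6 were marked, where chance gives about 1 in 20. Emilin1 was low in Control_6w replicate 3 at 13.9 CPM. Mmrn2 was also low there at 27.6 CPM, while Itga8 at 85.7 CPM and Npnt at 35.2 CPM were high in the same library. In IRR_6w replicate 1, Itga8 at 61.2 CPM and Hmcn1 at 82.9 CPM were high. These are the libraries with thymus and with lung epithelium markers, and the part of other tissue in the values was not tested.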

How the results depend on the processing

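Some fitted values changed direction, and the cause was not tested. With each library left out in turn, the log2 fold change at 1 day ran from -0.10 to 0.19 for Fbn1 and from -0.24 to 1.06 for Fbln5, at 6 weeks from -0.54 to 0.84 for Efemp1, and between the irradiated groups from -1.38 to 0.69 for Eln. The negative values at 1 day and the positive value of Eln came without IRR_1d replicate 3, and that of Efemp1 without IRR_6w replicate 1. Without Control_6w replicate 3 and IRR_6w replicate 1, Fbln1 was at -0.16 and Efemp1 at -0.57 at 6 weeks. With IRR_1d replicate 3 left out too, Fbln1 was at -0.17, Efemp1 at -0.57, Fbn1 and Fbln5 at 1 day at -0.10 and -0.24, and Eln between the irradiated groups at 0.35. In limma-voom the 6-week value of Efemp1 was -0.054, and at 1 day Npnt and Itga8 were at 2.31 and 2.52. The DEGs among the 10 genes at 6 weeks were 0 to 3 with 1 library left out, 0 without Control_1d replicate 1 and IRR_6w replicates 3 and 4, and 2 in pairwise edgeR. Between the irradiated groups they were 1 in either DESeq2 fit, 1 without Control_6w replicate 3 and IRR_6w replicate 1, and 2 with IRR_1d replicate 3 left out too, where 132 and 105 of all tested genes were DEGs.

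Over all genes, the 41 DEGs at 6 weeks became 343 and 352 in DESeq2, 18 in limma-voom, 13 in pairwise edgeR, 83 with library totals, 138 without the filter and 0 to 98 with 1 library left out. The 4 at 1 day became 33 and 60 in DESeq2, 0 in limma-voom and 0 in pairwise edgeR. The 6 between the irradiated groups became 148 and 368 in DESeq2, and the 0 between the controls 28 and 35.

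Correlations of same-numbered libraries, after centring each group, ran from -0.36 to 0.37. With 3 or 4 libraries per group they cannot settle whether the replicate numbers pair the libraries. With the replicate block, Fn1, Fndc1 and Svep1 remained DEGs at 6 weeks (log2 fold changes 2.59, 2.07 and 2.19, edgeR adjusted p = 0.0319 each), 15 genes were DEGs in all, and Ctss was not (adjusted p = 0.0729). At 1 day the block put Npnt at 2.13 and Itga8 at 2.17. The depth gave at least 137 counts of each of the 10 genes in every library.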
